A study of Mus musculus with 6 samples.

Results

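The genes described here carry glucose from the cell membrane to lactate, into the pentose phosphate pathway and to the gate of the mitochondrion. A list of 37 genes was drawn up by function, and a gene entered when at least 1 probe set of the array carried its symbol and no other. In that way 33 of the 37 genes were found, through 70 of the 34958 probe sets with 1 symbol. The genes Gpi1, Eno1, G6pdx and Mpc2 were not analysed here. The rule itself uses no measured value, but the members were chosen with earlier results of these data known.

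V720 is a mouse breast cancer cell line, assigned to the mammary epithelium by its labels and grown in DMEM with fetal calf serum. One group of 3 cultures received PD0332991 (palbociclib, an inhibitor of the cell cycle kinases CDK4 and CDK6) at 1 µM, and the other group of 3 received vehicle, both for 24 h. Total RNA of each culture was hybridized to 1 Affymetrix array, 6 arrays in all. The design text calls the replicates biological triplicates of 1 line, so a p-value measures the spread between cultures of this line only.

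Glycolysis splits glucose into pyruvate, and lactate dehydrogenase turns pyruvate into lactate, which leaves the cell through monocarboxylate transporters. The pentose phosphate pathway branches off after the first phosphorylation and yields NADPH and the ribose of nucleotides, which dividing cells need for DNA and RNA. The pyruvate dehydrogenase complex admits pyruvate to the citric acid cycle and is switched off by pyruvate dehydrogenase kinases. In human T cell leukaemia cells, CDK6 bound to a D-type cyclin is known to phosphorylate phosphofructokinase and pyruvate kinase directly. Arrays measure RNA, so neither flux nor enzyme activity was measured here.

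After PD0332991, 4 of the 33 genes rose, 1 fell and 28 did not pass the test. Pfkfb3, Hk2, Tigar and Pgd were the 4 that rose, by 1.22- to 1.42-fold, and Pdk3 was 1.20-fold lower. None of the 6 enzymes of upper glycolysis, the 5 of lower glycolysis or the 4 genes of lactate formation and export passed it. The 5 calls are 15.2% of the members, against 21.0% of the 18194 genes tested. Among all genes, 9.81% were called higher and 11.2% lower. The order of these shares depends on the fit. With a variance trend and robust settings 39.4% of the members were called against 28.3% of all genes, and with a replicate block 15.2% against 11.3%. It also turned when vehicle replicate 1 (15.2% against 13.9%) or PD0332991 replicate 3 (18.2% against 14.7%) was left out. With dim genes left out of the fit, 37.9% of the 29 members kept were called, against 52.3% of all genes kept. A gene was kept there when the higher of its group means exceeded the median level of all genes. This filter used the group labels, so its calls and shares are not independent of the change. The members are bright, with a median level at percentile 91 of all genes and 19 in the top 10%. Shares of members and of all genes, here and below, are therefore not matched for intensity.

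A call means an adjusted p under 0.05 in a two-sided limma test, corrected by the Benjamini-Hochberg method for the 18194 genes. Changes are differences of log2(intensity + 16), PD0332991 minus vehicle, which understate the change of dim genes. The median change of the 33 genes was 0.02, with a range of -0.26 to 0.50, beside a median of 0.0048 for all genes. Of the 33 changes, 17 lay above 0 and 16 below. The 3 values of each group did not overlap for 16 of the 33 genes (48.5%), 9 higher and 7 lower with PD0332991, whereas this held for 38.9% of all genes.

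**Figure D1:**
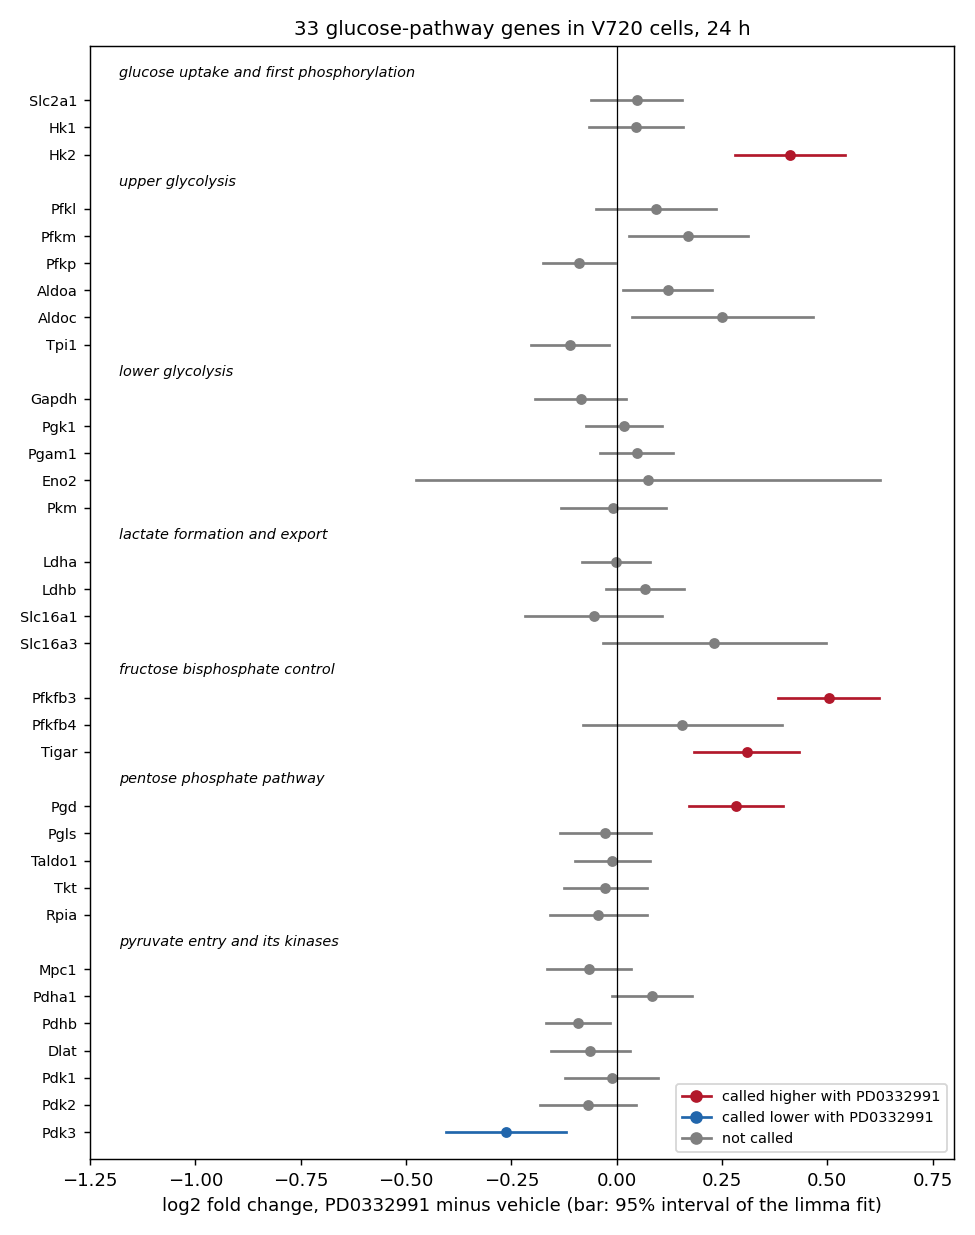
Change of each of the 33 genes, PD0332991 minus vehicle, on the log2(intensity + 16) scale, with its 95% interval from limma (n = 3 arrays a group). Genes are grouped by step, and those called are red (higher) or blue (lower). Pfkfb3 at 0.50 and Hk2 at 0.41 lie farthest to the right, Pdk3 at -0.26 lies farthest to the left, and most intervals cross 0.

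The arrays were alike in level and the groups stood apart. The median intensity was 69.6 to 71.1 on the PD0332991 arrays and 71.3 to 72.7 on the vehicle arrays. Correlations of log2 values were 0.9969 to 0.9973 within a group and 0.9919 to 0.9927 between groups. Mki67, a marker of dividing cells, had intensities of 955, 1064 and 1093 with PD0332991, against 4099, 4319 and 4171 with vehicle (limma adjusted p = 4.5e-05). Of the drug's targets, Cdk6 rose by 0.36 (adjusted p = 0.00255) and Cdk4 fell by 0.17 (adjusted p = 0.0305). Of 15 epithelial markers 2 rose and 1 fell (20%, against 21.0% of all genes). The summed intensity of the 15 was 68792 to 70345 with PD0332991 and 66557 to 68494 with vehicle. Krt8 (10231 to 10847 with PD0332991, 9896 to 10099 with vehicle) and Epcam (9595 to 9727 and 9443 to 9737) were well above 50, while Krt19, Krt14 and Esr1 stayed below 50 on every array. Of 13 leukocyte markers, 4 were called higher (30.8%, against 9.81% of all genes). The summed intensity of the 13 was 789 to 830 with PD0332991 and 656 to 728 with vehicle. The 4 were Ptprc, Tyrobp, Cd68 and Adgre1. Ptprc, Tyrobp and Cd3e were among the 8 leukocyte markers below 50 on every array. Cd68, Adgre1, Cd8a and Csf1r were above 50 on every array, and Lyz2 was near 50. Cd68 was the brightest, at 291 to 319 with PD0332991 and 216 to 247 with vehicle. The part of these shifts in the results was not tested. Summed fibroblast markers were 877 to 976 with PD0332991 and 916 to 955 with vehicle, and 7 of the 10 stayed below 50 on every array. Of these 10, 1 was called lower (10%, against 21.0% of all genes called). It was Pdgfra, at 111 to 121 with PD0332991 and 164 to 190 with vehicle (limma adjusted p = 0.00380). All 9 endothelial and 6 of 7 adipocyte markers stayed below 50 on every array. Of the endothelial markers 1, Emcn, was called lower, at 5.40 to 5.97 with PD0332991 and 12.7 to 14.0 with vehicle (limma adjusted p = 0.00109). In bulk RNA, fewer cells of a type and less RNA per cell cannot be told apart.

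The 9 probe sets of the hybridization spike-ins, added to every array, averaged 10.05, 10.04 and 10.00 with PD0332991 and 9.74, 10.03 and 9.94 with vehicle (log2). Vehicle replicate 1 stood apart as the lowest. Centring the arrays on these spike-ins moved the median of all genes to -0.12, and 9.43% of genes were then called, 240 higher and 1475 lower, in place of 1785 higher and 2035 lower. On this scale no member was called higher and Pdk3 alone was called lower (change -0.39, adjusted p = 0.0409). With vehicle replicate 1 left out of that centring, 8.63% of genes were called, Pfkfb3 and Hk2 were called higher and no member lower. Under the centring with all arrays, 9 genes without a call changed sign to below 0, the largest of them Aldoa, at 0.12 before and -0.0060 after.

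The first step holds the glucose transporter Slc2a1 (GLUT1) and the hexokinases Hk1 and Hk2, which trap glucose in the cell as its phosphate. Hk2, the inducible hexokinase of many tumours, had intensities of 197, 222 and 215 with PD0332991, against 154, 159 and 152 with vehicle. Every PD0332991 value lay above every vehicle value. The rise was 1.33-fold, 0.41 on the log2 scale (SE 0.05, 95% interval 0.28 to 0.54, adjusted p = 0.00442), and rests on 1 probe set. Hk1, the hexokinase of most tissues, changed by 0.05 (adjusted p = 0.545) and Slc2a1 by 0.05 (adjusted p = 0.522), with overlapping groups.

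Because both hexokinases were read on the same arrays, a constant added to all log2 values of an array cancels in their difference, whereas quantile normalization can move it. The Hk2 minus Hk1 difference was -3.80, -3.65 and -3.61 with PD0332991, against -4.01, -4.08 and -4.07 with vehicle (log2). The groups did not overlap, and the difference was 0.36 higher, that is less negative, with PD0332991. An exact two-sided permutation test gave p = 0.1, the smallest that 3 against 3 arrays allow (0.225 after Benjamini-Hochberg adjustment over 9 pairs). Only the shift between groups can be read from it, since different probe sets hybridize differently.

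The control point of glycolysis is phosphofructokinase, which is switched on by a fructose bisphosphate made by the PFKFB enzymes and removed by Tigar. This activator is a different molecule from the fructose bisphosphate that phosphofructokinase makes and aldolases split. Pfkfb3, the PFKFB enzyme with the strongest kinase side, was the gene with the largest change of the 33. Its intensities were 359, 333 and 362 with PD0332991, against 238, 239 and 253 with vehicle. The lowest PD0332991 value exceeded the highest vehicle value. It rose 1.42-fold, by 0.50 on the log2 scale (SE 0.05, 95% interval 0.38 to 0.62, adjusted p = 0.00165). A second, dim probe set averaged 13.2 with PD0332991 and 10.7 with vehicle and was not called. Pfkfb4 was dim as well, at 10.5 to 15.1 with PD0332991 and 7.41 to 12.7 with vehicle, and was not called (adjusted p = 0.325).

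Tigar, a p53 target in human cells, breaks down the same activator and favours the pentose phosphate branch. The probe set that represents it read 296, 272 and 289 with PD0332991, against 227, 218 and 237 with vehicle. These groups did not overlap, and the rise was 1.24-fold, 0.31 on the log2 scale (SE 0.05, 95% interval 0.18 to 0.43, adjusted p = 0.0105). Its other 2 probe sets pointed down. One changed by -0.10 (adjusted p = 0.392), and the other read 159, 155 and 156 with PD0332991 and 165, 167 and 184 with vehicle, a change of -0.12 that was not called (adjusted p = 0.176). With the mean of the 3 probe sets the change of Tigar was 0.03 (adjusted p = 0.706), so the call belongs to 1 probe set. Which transcripts the 3 probe sets read was not tested.

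**Figure D2:**
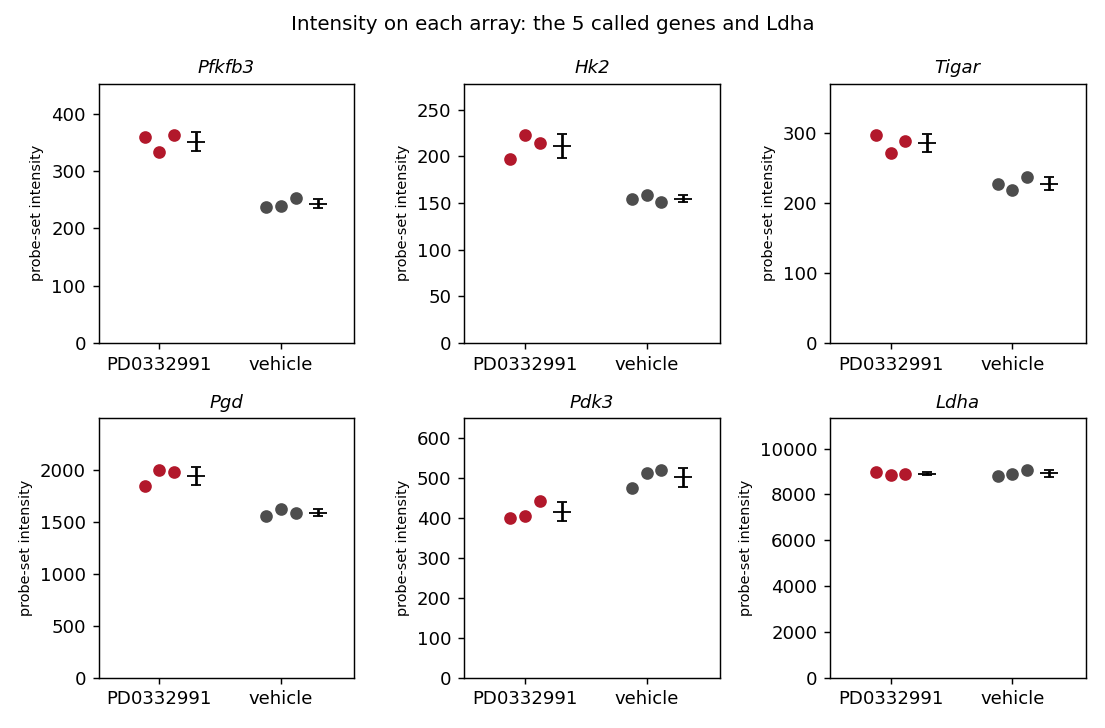
Intensity on each array (points, linear axis from 0) for the 5 genes called and for Ldha, with the mean and SD of 3 arrays, PD0332991 left and vehicle right. The PD0332991 points of Pfkfb3, Hk2, Tigar and Pgd lie above all vehicle points, those of Pdk3 lie below, and those of Ldha mix with the vehicle points between 8782 and 9053.

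The remaining enzymes of upper glycolysis moved in small steps and in both directions, and limma called none of the 6 found, although 5 had an unadjusted p under 0.05, as 33.3% of all genes did. Of the phosphofructokinase subunits, Pfkm (muscle type) changed by 0.17 (adjusted p = 0.0940), Pfkl (liver type) by 0.09 (adjusted p = 0.335) and Pfkp (platelet type) by -0.09 (adjusted p = 0.135). The Pfkp minus Pfkl difference was lower on each PD0332991 array than on each vehicle array, by 0.18 on average (exact permutation p = 0.1, adjusted 0.225). With the mean of probe sets that difference was -0.10. All 3 probe sets of Pfkp had changes below 0, from -0.16 to -0.09. Of the other 2 probe sets of Pfkl, 1 changed by -0.17 (adjusted p = 0.221) and 1 by 0.00047, with overlapping groups.

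The aldolases split the fructose bisphosphate of glycolysis. Aldoa changed by 0.12 (adjusted p = 0.107), and its 5 probe sets ranged from 0.09 to 0.13. All 5 are of the x type, whose probes can also match other transcripts. Aldoc, the aldolase known from brain, had the widest gap between probe sets. Its brighter probe set read 5617, 5605 and 4688 with PD0332991, against 4190, 4676 and 4464 with vehicle, a change of 0.25 that was not called (adjusted p = 0.102). Its dimmer probe set read 1230, 1302 and 945 with PD0332991, against 611, 754 and 654 with vehicle. That is a rise of 0.76 (SE 0.14), called in the fit over all probe sets (adjusted p = 0.0178). PD0332991 replicate 3 was the lowest of its group on both. Without that array the brighter probe set was called as well (change 0.34, adjusted p = 0.0295).

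Tpi1, triosephosphate isomerase, had changes of -0.16 to -0.11 on 3 probe sets, and on each of them the groups did not overlap. The probe set that represents it was not called (adjusted p = 0.0932). A second one was called lower in the probe-set fit, with 5013, 5206 and 5129 with PD0332991, against 5618, 5706 and 5787 with vehicle (adjusted p = 0.0405).

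In lower glycolysis limma called 0 of 5 genes, and 0 had an unadjusted p under 0.05. Gapdh, read only through the array's own control probe sets for this transcript, changed by -0.09 at its 5′ end, -0.08 in its middle and -0.01 at its 3′ end. The adjusted p of the brightest was 0.244. Pgk1 and Pgam1, the phosphoglycerate kinase and mutase, changed by 0.02 and 0.05. Pkm, the pyruvate kinase gene, changed by -0.0081 (95% interval -0.13 to 0.12, adjusted p = 0.935). Its single probe set cannot tell the splice forms of pyruvate kinase apart here. Eno2, the enolase known from neurons, was dim and scattered, with an interval of -0.48 to 0.62.

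None of the 4 genes of lactate formation and export was called by limma, and 0 had an unadjusted p under 0.05. Ldha, the lactate dehydrogenase subunit that dominates in many tumours, gave 8967, 8847 and 8891 with PD0332991, against 8782, 8908 and 9053 with vehicle. The groups overlapped fully, with a change of -0.0020 (SE 0.03, 95% interval -0.08 to 0.08, adjusted p = 0.978). Ldhb, the subunit known from heart, changed by 0.07 (adjusted p = 0.278). The Ldhb minus Ldha difference did not overlap between groups and was 0.07 greater with PD0332991 (exact permutation p = 0.1, adjusted 0.225). That shift was 0.11 after quantile normalization and 0.044 with the mean of probe sets. The lactate exporter Slc16a1 (MCT1) changed by -0.05 (adjusted p = 0.629). Slc16a3 (MCT4) was near the lower end of the scale, at 5.30 to 9.75 with PD0332991 and 1.66 to 6.05 with vehicle, and was not called (adjusted p = 0.201).

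In the pentose phosphate pathway 1 of 5 genes rose. Pgd, phosphogluconate dehydrogenase, yields NADPH in the oxidative branch. It read 1842, 1995 and 1977 with PD0332991, against 1557, 1621 and 1587 with vehicle, without overlap. The rise was 1.22-fold, 0.28 on the log2 scale (SE 0.05, 95% interval 0.17 to 0.40, adjusted p = 0.00945). All 4 probe sets of Pgd were called higher, with changes of 0.28 to 0.33. The one that represents it is of the x type, whose probes can also match other transcripts. The only one not of this type changed by 0.33 (limma adjusted p = 0.00523 in the probe-set fit). Pgls, the lactonase one step before Pgd, changed by -0.03 (adjusted p = 0.726). In the non-oxidative branch, the changes were -0.01 for transaldolase Taldo1, -0.03 for transketolase Tkt and -0.04 for ribose phosphate isomerase Rpia (adjusted p = 0.577 to 0.884). A dim probe set of Tkt read 156, 175 and 185 with PD0332991, against 135, 150 and 141 with vehicle. Its groups did not overlap, and the change of 0.25 was not called (adjusted p = 0.0630). With the mean of its 3 probe sets Tkt changed by 0.08.

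At the entry of pyruvate, 1 of 7 genes was called. Of the 7, 6 had changes below 0, beside 8866 of all 18194 genes. The sign of Pdk1 turned under quantile normalization, median centring and the mean of probe sets. It also turned in some fits with 1 array left out. Pdha1, the gene above 0, turned under spike-in centring. Pdk3, a kinase that inactivates pyruvate dehydrogenase, read 399, 404 and 442 with PD0332991, against 474, 511 and 519 with vehicle. The highest PD0332991 value lay below the lowest vehicle value. Pdk3 fell by 0.26 on the log2 scale, or 1.20-fold (SE 0.06, 95% interval -0.41 to -0.12, adjusted p = 0.0267), on the evidence of 1 probe set. The call was lost when PD0332991 replicate 1 or 2 or vehicle replicate 2 or 3 was left out (largest adjusted p = 0.0856), with the change at -0.31 to -0.24 over all 6 such fits.

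Pdk1, the kinase known as a HIF target, changed by -0.01 on its brightest probe set (adjusted p = 0.884). A second of its 4 probe sets was called higher, with 717, 686 and 714 with PD0332991, against 554, 599 and 607 with vehicle (change 0.26, adjusted p = 0.0203). The remaining 2 gave -0.13 and 0.01. Pdk2 changed by -0.07 (adjusted p = 0.380). The Pdk3 minus Pdk2 difference was 2.47, 2.45 and 2.64 with PD0332991, against 2.71, 2.74 and 2.70 with vehicle, without overlap (exact permutation p = 0.1, adjusted 0.225). Of the enzyme subunits, Pdha1 changed by 0.08 (adjusted p = 0.195), Pdhb by -0.09 (adjusted p = 0.0959) and Dlat by -0.06 (adjusted p = 0.317). Mpc1, a subunit of the mitochondrial pyruvate carrier, changed by -0.07 (adjusted p = 0.329).

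For single genes the groups did not overlap in 38.9% of all cases, and such a share over all gene pairs was not computed. Of the 9 isoform pairs that could be compared, the groups did not overlap for Hk2 with Hk1, Pfkp with Pfkl, Ldhb with Ldha and Pdk3 with Pdk2. For the other 5 pairs the groups overlapped (exact permutation p = 0.2 to 0.4). With the mean of probe sets, 3 of these 5 reached the smallest exact p of 0.1, with shifts of 0.19 for Pfkm with Pfkl, 0.40 for Aldoc with Aldoa and 0.10 for Pdk1 with Pdk2. Pfkfb4 with Pfkfb3 reached it after quantile normalization (shift -0.40) and with a pseudocount of 64 (shift -0.38). The shift of Slc16a3 with Slc16a1, where Slc16a3 was dim, was 0.88 with a pseudocount of 1 and 0.13 with 64. No pair could pass the threshold with 3 arrays a group.

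Over all 70 probe sets, 9 were called higher and 2 lower (15.7%), against 17.6% of the 34958 probe sets with 1 symbol. Of the 9, 4 belong to Pgd and 1 each to Pfkfb3, Hk2, Tigar, Aldoc and Pdk1. The 2 called lower belong to Pdk3 and Tpi1.

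**Figure D3:**
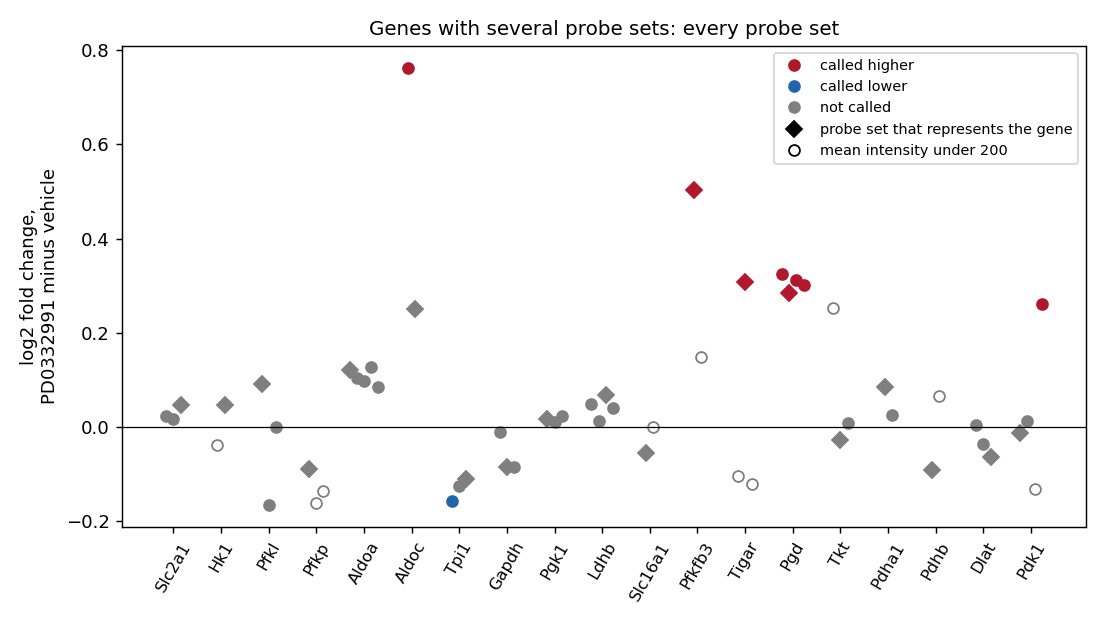
Change of every probe set (log2 scale, PD0332991 minus vehicle) for the 19 genes with several, with diamonds for the probe set that represents the gene and open symbols where the mean intensity was under 200. The 4 probe sets of Pgd lie together between 0.28 and 0.33, while those of Tigar, Aldoc and Pdk1 spread widely.

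For the 28 genes without a call, the place and width of the 95% interval are given for the deposited scaling only. The 95% interval lay within 0.25 of 0 on the log2 scale for 23 of the 28 and within 0.5 for 27, Eno2 being the exception. It lay within 0.15 of 0 for 8 of them. Among all 14374 genes not called, 5977 had an interval within 0.25 of 0. Spike-in centring widened the intervals. Ldha then had a change of -0.13 with an SE of 0.12, in place of 0.03. Pkm had a change of -0.14 with an SE of 0.12, in place of 0.05. Intervals on that scale were not counted. For 6 of the 28, Pfkm, Pfkp, Aldoa, Aldoc, Tpi1 and Pdhb, the interval left out 0 although the adjusted p was 0.0932 to 0.135. These 6 were called when dim genes were left out of the fit by that filter on group means. There 52.3% of the remaining genes were called, giving 7 members higher and 4 lower. They were also called with a variance trend and robust settings, where 28.3% of genes were called, giving 8 members higher and 5 lower.

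**Figure D4:**
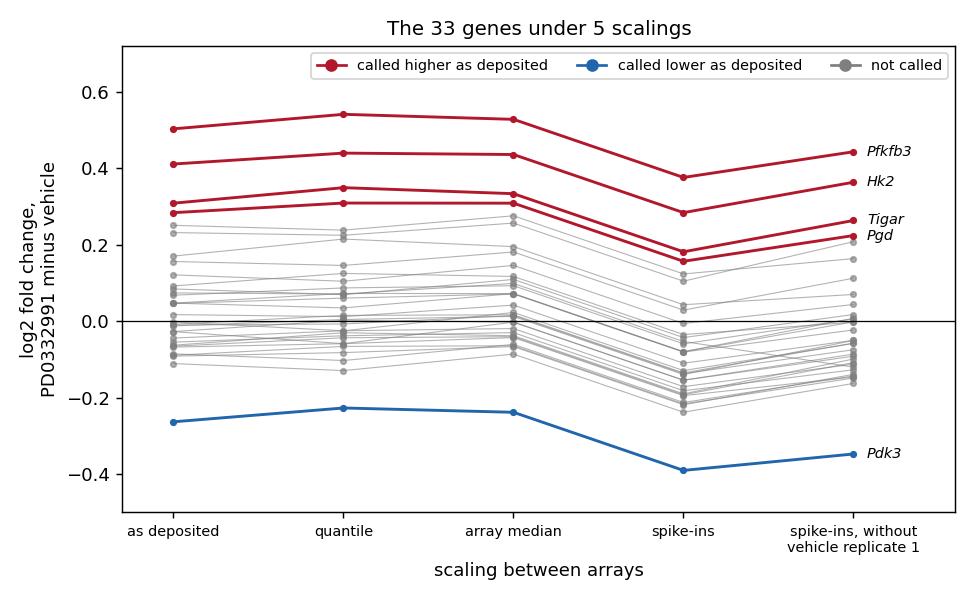
Change of each of the 33 genes under 5 scalings of the arrays, log2 scale, PD0332991 minus vehicle. Centring on the spike-ins shifts the genes down, to a median of -0.11 for the 33, and Pfkfb3, Hk2, Tigar and Pgd (red) stay above 0 while Pdk3 (blue) stays below.

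The RefSeq promoter windows of these genes (build GRCm38.p6) run from 250 bases before to 50 after an annotated start. They are shown for the 3 called genes whose windows held the letters ACGTG, and for Ldha, which was not called. The letters ACGTG are the core of the hypoxia response element and, in the form CACGTG, of the E-box bound by MYC. The letters GGGCGG are the GC box. In the windows below, written 5′ to 3′ on the strand of the gene, capitals mark ACGTG or its complement CACGT and GGGCGG or its complement CCGCCC.
Pfkfb3, chr2:11553880-11554179, minus strand: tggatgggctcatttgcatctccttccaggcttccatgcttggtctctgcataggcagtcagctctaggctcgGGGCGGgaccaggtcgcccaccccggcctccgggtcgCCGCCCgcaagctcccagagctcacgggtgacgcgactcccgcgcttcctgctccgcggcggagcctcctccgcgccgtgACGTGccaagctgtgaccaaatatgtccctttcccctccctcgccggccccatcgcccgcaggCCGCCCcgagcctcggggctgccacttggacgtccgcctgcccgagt
Pfkfb3, chr2:11502041-11502340, minus strand: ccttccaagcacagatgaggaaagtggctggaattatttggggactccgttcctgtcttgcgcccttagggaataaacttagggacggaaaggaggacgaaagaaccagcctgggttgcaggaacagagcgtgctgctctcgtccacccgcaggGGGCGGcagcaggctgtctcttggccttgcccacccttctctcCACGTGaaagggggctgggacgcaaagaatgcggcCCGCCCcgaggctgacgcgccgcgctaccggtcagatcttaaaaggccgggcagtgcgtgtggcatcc
Hk2, chr6:82774405-82774704, minus strand: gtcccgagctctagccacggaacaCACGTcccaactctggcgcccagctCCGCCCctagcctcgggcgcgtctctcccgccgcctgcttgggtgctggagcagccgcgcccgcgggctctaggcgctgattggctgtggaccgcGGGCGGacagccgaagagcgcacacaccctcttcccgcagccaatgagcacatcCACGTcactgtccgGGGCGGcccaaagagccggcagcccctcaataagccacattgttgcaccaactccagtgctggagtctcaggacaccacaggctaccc
Pdk3, chrX:93832101-93832400, minus strand: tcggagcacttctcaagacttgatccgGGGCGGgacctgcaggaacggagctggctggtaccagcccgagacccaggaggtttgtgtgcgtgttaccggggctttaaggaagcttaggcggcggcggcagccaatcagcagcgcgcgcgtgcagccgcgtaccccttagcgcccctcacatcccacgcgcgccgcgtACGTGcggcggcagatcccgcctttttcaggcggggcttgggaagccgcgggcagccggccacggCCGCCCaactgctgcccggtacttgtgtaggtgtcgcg
Ldha, chr7:46845554-46845853, plus strand: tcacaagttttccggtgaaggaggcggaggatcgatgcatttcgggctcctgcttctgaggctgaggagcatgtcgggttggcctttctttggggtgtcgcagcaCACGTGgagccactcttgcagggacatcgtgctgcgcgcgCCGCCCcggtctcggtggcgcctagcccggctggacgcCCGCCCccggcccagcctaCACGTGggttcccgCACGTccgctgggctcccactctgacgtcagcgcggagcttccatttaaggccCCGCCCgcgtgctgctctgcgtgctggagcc

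ACGTG was found on either strand in both windows of Pfkfb3, at 2 places in Hk2 and at 1 in Pdk3, and the windows of Tigar and Pgd held none. The first window of Ldha held 5 matches, of which 4 come from 2 CACGTG runs, each read on both strands. The letters were thus present in genes that rose, in the gene that fell and in Ldha. Of the 47 windows of the 33 genes, 42.6% held ACGTG, against 19.6% of 32851 windows of all genes. By gene, 17 of the 33 held it. Windows of a gene can overlap and hold the same match, as those of Aldoa do. Member windows and all windows were not matched for base content, and these shares were not tested. CACGTG was in 10.6% of member windows and 7.2% of all, and GGGCGG in 61.7% and 35.7%. The E2F letters TTTGGCGC and TTTCCCGC were in 0 of the 47 windows and 1.6% of all. A match is a run of letters and not a measured binding site.

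Of 48 further genes of the same pathways, 4 rose and 4 fell (16.7%, against 21.0% of all genes). Among 28 other isoforms and partner enzymes, 4 rose and 2 fell. Ldhd, the mitochondrial dehydrogenase of D-lactate, read 3365, 3285 and 2796 with PD0332991 and 1602, 1823 and 1673 with vehicle, a rise of 1.84-fold (adjusted p = 0.00186). Pgm3, the sugar phosphate mutase of hexosamine synthesis, rose 1.14-fold (adjusted p = 0.0226). Pgm2l1, which makes glucose bisphosphate, was 1.24-fold lower (adjusted p = 0.00831). Ldhc, the lactate dehydrogenase of testis, was called lower (adjusted p = 0.0449) at intensities of at most 8.13 with PD0332991 and 17.7 with vehicle. In the wider pentose phosphate and ribose list 1 of 9 fell. That gene was Prps1, which makes the activated ribose of nucleotides (change -0.17, adjusted p = 0.0215). Of 11 genes around pyruvate dehydrogenase, 1 fell. It was Pcx, pyruvate carboxylase, 1.22-fold lower (adjusted p = 0.0122).

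Among 20 regulators of these pathways, 1 rose and 2 fell. Myc, which drives many glycolytic genes, rose 1.33-fold (adjusted p = 0.00302). Ppargc1a, a coactivator of mitochondrial genes, was 1.30-fold lower (adjusted p = 0.0117). Mlxip, the glucose sensor MondoA, was 1.18-fold lower (adjusted p = 0.0132). Of 16 HIF targets outside glycolysis, 7 rose and 1 fell. P4ha1, a collagen prolyl hydroxylase, rose 1.54-fold (adjusted p = 0.000170) and Vegfa, the vascular growth factor, 1.36-fold (adjusted p = 0.00155). Ndrg1 was 1.89-fold lower (adjusted p = 0.000510). Of 10 NRF2 targets, 2 rose and 3 fell. Srxn1 (sulfiredoxin) rose 1.33-fold (adjusted p = 0.00321) and Hmox1 (haem oxygenase) 1.56-fold (adjusted p = 0.00400). Gsr (glutathione reductase) was 1.30-fold lower (adjusted p = 0.00528) and Gclc, of glutathione synthesis, 1.19-fold lower (adjusted p = 0.00923). These counts stand beside the 9.81% of all genes called higher and 11.2% called lower, and no list was tested as a whole.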

How the data were processed

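RNA from 3 PD0332991-treated and 3 vehicle-treated cultures was labelled with biotin by the Affymetrix procedure, per the labels' protocols. The authors deposited 1 linear intensity per probe set and array, for 45101 probe sets. How the probes were summarised and scaled is not given in the sources used here, so a change in total RNA per cell might not show. No further scaling was applied. Symbols came from the platform annotation, which can be old: 34958 probe sets carried 1 symbol, 932 several and 9160 none. Those with 1 symbol named 18194 genes, including 13 control probe sets of mouse genes. The other 51 control probe sets were left out. Each gene was represented by its brightest probe set.

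Log2(intensity + 16) was compared with limma 3.58.1 in R 4.3.3 (lmFit and eBayes, two-sided, Benjamini-Hochberg adjustment, threshold 0.05, no replicate block). Tables and plots used Python 3.11.15, pandas 2.3.3 and matplotlib 3.10.9. Promoter windows came from RefSeq, build GRCm38.p6. Isoform pairs were compared by an exact permutation test over arrays. All listed genes are named. By rule, values per array are given for called genes, and each wider list names at most 2 genes higher and 2 lower. Those of Ldha, Ldhd, the probe sets of Aldoc and the further probe sets of Tigar, Tpi1, Tkt and Pdk1 were added after their values were seen. The members and lists were chosen with earlier results of these data known. The fit was tested on simulated data for 18194 genes, 200 of them changed. At log2 changes of 0.25, 0.5, 1 and 2, the shares recovered were 32%, 88%, 98% and 100%, and 16 of 175 calls were false. In the data 21.0% of genes were called, a far larger share than was changed in the simulation. The shares recovered may therefore not carry over to the data. The 3 arrays a group limit the precision of a value, and the scaling and the choice of probe set can move it. Alternatives were other scalings, pseudocounts and variance settings, the mean of probe sets, leaving out dim genes, a replicate block and leaving out each array. Protein sequences were not used here.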

Additional observations from a re-analysis of the deposited data

How the results depend on the processing

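The number of arrays and the scaling set the limits. Pfkfb3, Hk2, Tigar and Pgd kept their calls with any 1 array left out (largest limma adjusted p = 0.0111, 0.0231, 0.0408 and 0.0382), and Pdk3 kept its call in 2 of these 6 fits. With 1 array left out, 1096 to 1252 genes were called higher, 1326 to 1494 lower, 4 to 5 members higher and 0 to 1 lower. The members' median was then -0.0048 to 0.034, with 6 to 8 member probe sets higher and 0 to 1 lower. Replicate numbers did not pair the arrays (correlations of deviations 0.0076, -0.051 and 0.050). With a replicate block, 895 genes were called higher and 1152 lower, 4 members higher and 1 lower, and 8 member probe sets higher and 0 lower. Spike-in centring called 240 genes higher and 1475 lower, 0 members higher and 1 lower, with a members' median of -0.11 and 1 member probe set each way. There the changes were 0.38 for Pfkfb3 (adjusted p = 0.0540), 0.28 for Hk2 (0.148), 0.18 for Tigar (0.375) and 0.16 for Pgd (0.429). Without vehicle replicate 1, it called 412 genes higher and 1159 lower, 2 members higher and 0 lower, with a median of -0.050 and 2 member probe sets higher and 0 lower. Median centring gave a median of 0.042 and 1 member probe set lower. Leaving out dim genes called 7 members higher and 4 lower (14 and 6 probe sets), and trend and robust settings 8 and 5 (17 and 7 probe sets). Both settings change the variance estimate or the number of genes tested, and the filter on dim genes used the group means. Quantile normalization added Pfkm (0.21, adjusted p = 0.0269), and the mean of probe sets added Aldoc (0.51, adjusted p = 0.0299) and removed Tigar. Signs turned only for genes without a call. Under quantile normalization these were Pkm 0.015, Pgls 0.0024 and Pdk1 0.0044. Under median centring they were Pkm 0.017, Ldha 0.023, Taldo1 0.015 and Pdk1 0.013. Under spike-in centring they were Slc2a1 -0.080, Hk1 -0.081, Pfkl -0.035, Aldoa -0.0060, Pgk1 -0.11, Pgam1 -0.080, Eno2 -0.053, Ldhb -0.059 and Pdha1 -0.043. Without vehicle replicate 1 they were Hk1 -0.023, Pfkl -0.0026, Pgk1 -0.050, Pgam1 -0.0018 and Eno2 -0.12. With the mean of probe sets they were Pfkl -0.024, Tkt 0.078 and Pdk1 0.032. With 1 array left out, the ranges were -0.040 to 0.028 for Pkm, -0.013 to 0.0092 for Ldha, -0.029 to 0.0061 for Taldo1, -0.039 to 0.019 for Pdk1, -0.0044 to 0.034 for Pgk1, -0.12 to 0.25 for Eno2 and -0.048 to 0.0026 for Pgls. The cause of the turned signs was not tested.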

Other observations

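Probe sets that carry several symbols gave further readings of Gapdh and Hk1, which hold pseudogenes or another gene beside them. The 3 that share Gapdh with its pseudogenes changed by -0.03, -0.13 and -0.01, and the 1 that shares Hk1 with ribosomal protein genes changed by -6.1e-05. None of the 4 was called.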
